A study of Homo sapiens with 9 samples.

Results

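The genes described here are 40 interferon-stimulated and MHC class I genes, chosen by their gene names in the deposited raw-count and TPM tables. All 40 names were present among the 60642 listed, and 27 of the 40 passed the filter on low counts, against 18574 genes in all. They were followed in SNU-398, a mesenchymal-like hepatocellular carcinoma (HCC) cell line that was stably transduced with lentivirus and selected with puromycin. The vector control carried the overexpression control construct and is labelled wild type, the EMX1-FL group overexpressed the full-length isoform of the homeobox gene EMX1, and the EMX1-X1 group overexpressed the isoform with an alternative C-terminal end, with 3 RNA-seq libraries in each group. No interferon or other stimulus is named in the labels for any group. The promoter of the construct and the use of clones or pools are not stated in the labels, and nothing there says that the 3 libraries of a group came from separate transductions, so p-values measure the spread between these libraries, which may be technical.

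Interferons are secreted proteins that signal through paired surface receptors and the JAK kinases. The kinases activate STAT2 and its partner, which join IRF9 and bind the interferon-stimulated response element (ISRE) in the promoters of antiviral genes. Interferon gamma acts through another DNA element, the gamma-activated site (GAS), and through IRF1, and it is known for raising antigen presentation by MHC class I. Tumour cells show fragments of their proteins to cytotoxic T cells through this pathway, and its loss is a known route of immune escape.

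Across the vector control, EMX1-FL and EMX1-X1 libraries the 40 genes had a divided profile. The MHC class I chains, the RNA sensor IFIH1, the deISGylating protease USP18 and IFI35 were among the well expressed genes of these cells, while most classical antiviral effectors (the IFITM family, the OAS genes other than OAS3, MX1, MX2, RSAD2, BST2, IFI44 and IFI44L) were at or near 0. No member passed the DEG threshold of the study, an unadjusted p under 0.05 together with a log2 fold change of 1 or more in either direction, in any of the 3 comparisons, and none passed at an adjusted p under 0.05 (quasi-likelihood test of edgeR, Benjamini-Hochberg). At an unadjusted p under 0.05 alone, HERC6 was higher with either isoform, IRF7 was higher with EMX1-X1, and IFIT3 was higher with EMX1-FL than with EMX1-X1. DESeq2 and limma on the deposited log2(TPM + 1) values also gave 0 members at both thresholds in each comparison. At an unadjusted p under 0.05 each gave 1 member with EMX1-FL, 2 with EMX1-X1 and 1 between the isoforms, of 27 tested. Over all 18574 genes tested, DESeq2 gave 1251, 1710 and 1693 in the same order, and limma 1168, 1753 and 1428. In these bulk libraries, fewer cells expressing a gene and less RNA per cell cannot be told apart.

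The regulatory letters of these promoters were read from the RefSeq windows of build GRCh38.p14, which reach from 250 bases before to 50 bases after a gene's start. Of the 40 members, 31 had a window. The ISRE core was searched as GAAANNGAA on both strands, where N is any base, and it was present in 20 of the 31 members (64.5%) against 9.86% of 27305 genes with a window. The GAS letters TTCNNNGAA, which read the same on both strands, were present in 10 of the 31 (32.3%) against 9.38% of all genes; a gene with several windows counts if any of them matches. A stretch may hold both motifs, and a match is only a match of letters.

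The 150 bases before the start are shown for IFIT3, the member that had both ISRE letters and an unadjusted p under 0.05. They are also shown for ISG15, IFIH1, IFIT5 and B2M, which passed the count filter, and for BST2 and IFITM3, which did not. These 6 were chosen after their values were seen. Capitals mark the matches to the ISRE core, and where a gene has several windows, that with the most matches is shown.

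IFIT3, chr10:89332379-89332528, plus strand: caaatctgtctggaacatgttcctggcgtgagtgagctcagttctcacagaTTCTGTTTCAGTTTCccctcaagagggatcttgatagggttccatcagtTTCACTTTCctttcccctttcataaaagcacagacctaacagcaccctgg
ISG15, chr1:1013347-1013496, plus strand: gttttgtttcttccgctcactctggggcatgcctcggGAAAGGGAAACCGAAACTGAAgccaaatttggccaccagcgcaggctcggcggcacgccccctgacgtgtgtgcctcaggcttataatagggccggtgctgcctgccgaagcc
IFIH1, chr2:162318685-162318834, minus strand: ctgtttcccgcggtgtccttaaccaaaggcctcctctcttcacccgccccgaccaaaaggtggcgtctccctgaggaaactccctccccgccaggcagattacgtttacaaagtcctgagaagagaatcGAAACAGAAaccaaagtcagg
IFIT5, chr10:89414418-89414567, plus strand: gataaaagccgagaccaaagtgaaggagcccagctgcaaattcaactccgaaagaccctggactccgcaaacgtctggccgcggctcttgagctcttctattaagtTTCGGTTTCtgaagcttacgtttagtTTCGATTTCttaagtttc
B2M, chr15:44711367-44711516, plus strand: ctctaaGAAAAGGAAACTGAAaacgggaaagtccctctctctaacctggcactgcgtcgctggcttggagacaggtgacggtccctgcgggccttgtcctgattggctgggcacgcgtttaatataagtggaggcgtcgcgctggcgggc
BST2, chr19:17405631-17405780, minus strand: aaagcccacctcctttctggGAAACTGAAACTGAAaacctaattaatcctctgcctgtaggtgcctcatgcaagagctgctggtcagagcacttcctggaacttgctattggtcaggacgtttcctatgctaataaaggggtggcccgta
IFITM3, chr11:320861-321010, minus strand: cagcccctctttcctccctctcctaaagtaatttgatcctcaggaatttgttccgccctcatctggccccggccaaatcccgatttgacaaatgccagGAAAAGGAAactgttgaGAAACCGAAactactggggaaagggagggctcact

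The letters did not part the members that passed the count filter from those that did not. The filter is not a line between expressed and silent genes. MX1 passed it at a mean of 0.138 TPM, and IFITM3 did not at 0.983. Of the members with a window, 14 of the 23 that passed the count filter (60.9%) and 6 of the 8 that did not (75.0%) had the ISRE core. The start-site windows differed in CpG dinucleotides, with a median of 20 (from 4 to 36) in the 23 members that passed and of 2.5 (from 0 to 45) in the 8 that did not, against 16 over all genes, each gene taken at its window with the most. HERC6, HLA-B, HLA-C, IFI35, STAT2, IRF1, IRF9, DDX58, OAS1, XAF1 and PSMB9 had no ISRE core in their windows. IRF7 and HLA-E were among the members without a window, so their letters were not read.

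The overexpression was present in the libraries labelled for it. EMX1 was at 9.34, 9.99 and 12.9 CPM (counts per 1000000 read pairs, on TMM-normalized library sizes) in the vector control, 251, 135 and 145 with EMX1-FL and 145, 294 and 288 with EMX1-X1. The 9 libraries held 21562703 to 25197970 counted read pairs, so 3 counts, the most that a count of 0 allows, correspond to 0.121 to 0.138 CPM; this covers counting error only. In a principal component analysis without the 40 members, the first component held 39.6% of the variance and separated vector control 3, EMX1-FL 1 and EMX1-X1 2 and 3, the positive-component libraries, from the other 5. Each group had libraries on both sides, and EMX1 itself was higher in the positive-component libraries of every group. Of 10 blood and immune cell markers, 1 reached a mean of 1 TPM, and their summed level was 0.366 to 2.40 TPM in the vector control, 0.973 to 7.04 in EMX1-FL and 1.48 to 3.34 in EMX1-X1, with MS4A1 and CD68 at 0 counts in all libraries; their part in the members' values was not tested. Of the hepatocyte markers, 1 of 10 reached that mean, against 6 of 7 mesenchymal markers.

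Levels were compared between genes as TPM (transcripts per 1000000, which allow for gene length), and the median of the mean TPM over all genes tested was 13.4. HLA-B, a classical MHC class I heavy chain that presents peptides, had the highest mean of the 40 genes, 211 TPM over the 9 libraries, above 97.1% of the genes tested. It was followed by HLA-C at 186 TPM, B2M, the invariant light chain, at 158, and HLA-E, the non-classical heavy chain read by NK cells, at 135, and the ranges of these neighbours over the libraries overlapped. TAP1 and TAP2, the peptide transporter of the endoplasmic reticulum, were at 21.1 and 22.6 TPM, above 59.9% and 61.4% of the genes tested. TAP2 shares 32.2% of its exon bases with AL669918.1, so its level is uncertain. The immunoproteasome subunits PSMB9 and PSMB8 were lower, at 4.94 and 1.95 TPM. The heavy chains and B2M were thus abundant, the peptide transporter was intermediate and the immunoproteasome subunits were low, as the plot of levels shows.

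**Figure D1:**
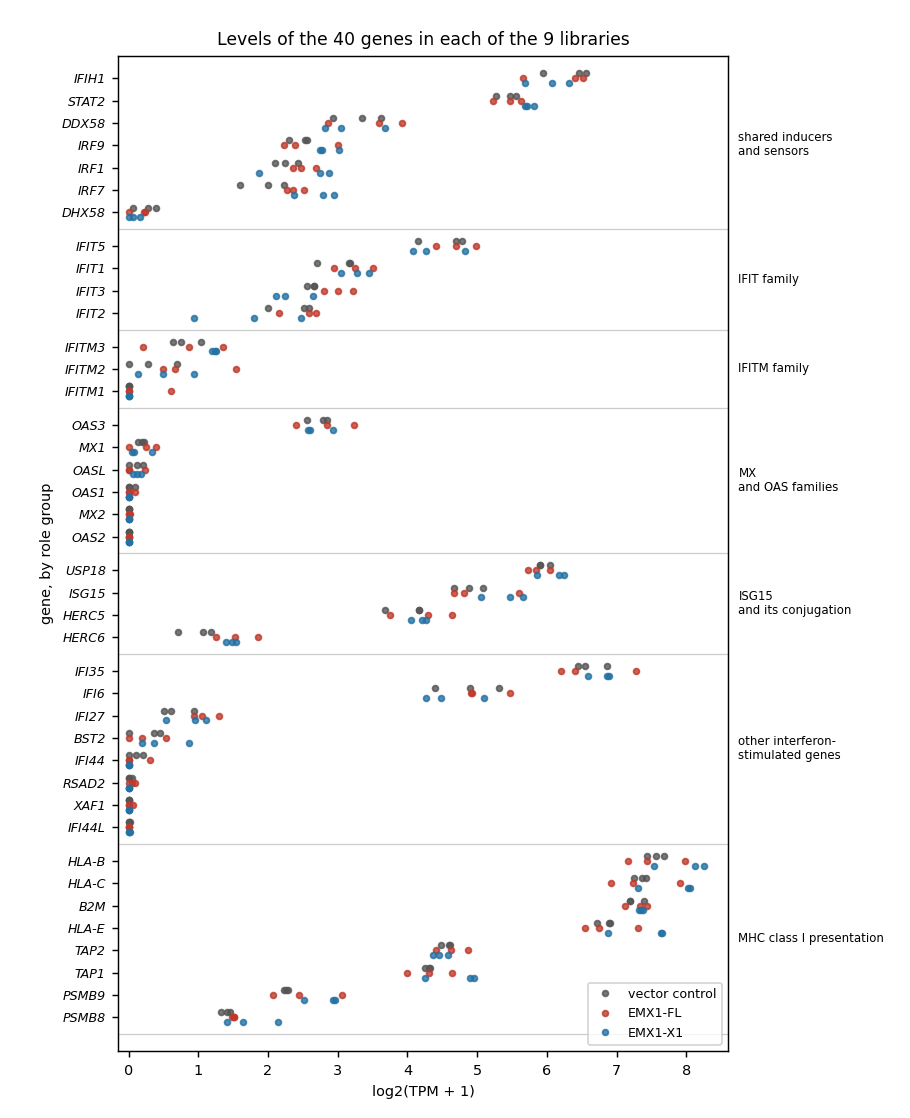
Log2(TPM + 1) of each of the 40 genes in each of the 9 libraries, ordered by role group and mean level. Grey, red and blue points are the vector control, EMX1-FL and EMX1-X1 libraries, 3 each. The MHC class I heavy chains lie at the right and 13 genes that did not pass the count filter lie at the left, close to 0.

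Among the inducers and sensors, IFIH1, the sensor of long viral RNA (MDA5), was highest with a mean of 73.3 TPM. It was at 93.6, 86.7 and 60.5 TPM in the vector control, 49.7, 83.4 and 90.4 with EMX1-FL and 78.5, 66.2 and 50.4 with EMX1-X1. The groups overlapped, and the lowest library of each group was one of the positive-component libraries. STAT2 had a mean of 45.8 TPM, and DDX58, which encodes the RNA sensor RIG-I, of 9.29. The transcription factors IRF9, IRF1 and IRF7 were low at 5.24, 4.47 and 4.24 TPM. However, 100% of the 100-base stretches of the IRF9 transcript are shared with AL136295.5. Of the exon bases, 42.2% in IRF9 and 22.1% in IRF1 are shared with other annotated genes, so these levels are uncertain, that of IRF9 most. DHX58, the sensor LGP2, had 27 counts in all 9 libraries together and was not tested.

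The 4 IFIT genes, whose products bind viral RNA and block its translation, were all detected, although at unequal levels. IFIT5 was highest, at 24.9, 26.4 and 16.7 TPM in the vector control, 20.3, 30.7 and 24.9 with EMX1-FL and 27.3, 18.3 and 15.9 with EMX1-X1, with overlapping groups. IFIT1, IFIT3 and IFIT2 had means of 8.10, 5.47 and 3.84 TPM. In contrast, the IFITM genes, which encode membrane proteins that block viral entry, were barely detected. IFITM3, the highest of them, had 4, 5 and 9 counts in the vector libraries, 11, 6 and 1 counts with EMX1-FL and 10 in each EMX1-X1 library, or 0.156 to 1.55 TPM. IFITM2 had 50 counts and IFITM1 3 counts over all libraries. IFITM1 and IFITM2 share exon bases (37.5% of those of IFITM1 and 22.75% of those of IFITM2), so their counts are uncertain. Of the 100-base stretches of the IFITM1 transcript, 37.7% are shared with IFITM2 or IFITM3.

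Of the OAS genes, whose products make the messenger that activates RNase L, OAS3 alone was expressed at 1 TPM or more. OAS3 was at 4.91, 5.88 and 6.18 TPM in the vector control, 8.43, 6.16 and 4.30 with EMX1-FL and 6.65, 5.04 and 4.94 with EMX1-X1, and the groups overlapped. OAS1 had 4 counts, OASL 16 and OAS2 0 in the 9 libraries together, and the 0 of OAS2 allows up to 0.0142 CPM over the summed libraries. The MX genes encode GTPases that trap viral nucleocapsids. MX1 had between 0 and 15 counts a library and passed the filter, and MX2 had 1 count in all.

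USP18, which removes the ubiquitin-like modifier ISG15 from proteins and also dampens the type I interferon receptor, was the highest of the ISG15 group. It was at 58.6, 58.7 and 64.8 TPM in the vector control, 65.0, 52.3 and 56.3 with EMX1-FL and 56.8, 71.4 and 74.6 with EMX1-X1. The groups overlapped, and 15.4% of the 100-base stretches of its transcript are shared with USP41. ISG15 had a mean of 34.5 TPM and its ligase HERC5 of 16.9, while HERC6, a relative of HERC5, was at 1.58.

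IFI35, a partner of the interferon-induced protein NMI, led the remaining genes. IFI35 was at 85.9, 92.6 and 115 TPM in the vector control, 155, 83.7 and 72.7 with EMX1-FL and 95.5, 116 and 118 with EMX1-X1. The highest and the lowest of the 9 values were both EMX1-FL libraries. IFI6, a mitochondrial and endoplasmic reticulum protein, had a mean of 29.1 TPM and IFI27 of 0.870. IFI44, IFI44L, RSAD2 (viperin), XAF1 and BST2 (tetherin) had 6, 2, 4, 2 and 18 counts over the 9 libraries. In all, the 13 members that did not pass the filter had at most 18 counts in any library, and no fold change is given for them.

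The genes upstream of the members were described from lists of the pathway. Of 21 interferon genes, none passed the count filter, and 16 had 0 counts in all 9 libraries; the highest mean, that of IFNK, was 0.0349 TPM. The receptor chains and kinases were present: IFNGR1, the ligand-binding chain for interferon gamma, was highest of its list, between 64.4 and 135 TPM in the libraries. Chosen after their values were seen, IFNAR1 was at 26.1 TPM, IFNAR2 at 1.26, JAK1 at 29.7 and TYK2 at 49.3, and IFNLR1, the chain specific for interferon lambda, had 0 counts. Of the sensing genes MAVS, the adaptor of IFIH1 and RIG-I, was highest at 52.4 TPM. STING1, the adaptor of DNA sensing, had 3 counts in all and its partner CGAS was at 0.402 TPM, so the adaptor on the RNA side was abundant and that on the DNA side nearly absent.

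EMX1-FL against vector control asked whether the full-length isoform changed these genes. Of the 27 members tested, 0 passed the DEG threshold, against 2.42% of the 18574 genes tested. No member passed at an adjusted p under 0.05 (0.07% of all genes). At an unadjusted p under 0.05 there was 1 member (3.7%), against 5.8% of all genes by the same edgeR test. The members' median log2 fold change was 0.06, with 17 higher and 10 lower and a range from -0.20 to 0.89, beside a median of 0.04 over all genes tested. The 95% confidence interval lay within a log2 fold change of 1 in either direction for 23 of the 27, the exceptions being IRF7, MX1, HERC6 and IFI27. The libraries of the groups did not overlap for 1 member (3.7%), against 10.5% of all genes.

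HERC6, a HECT-type ligase of the HERC family on chromosome 4 (88378739 to 88443111, plus strand, GRCh38), was that member. HERC6 was at 1.71, 2.05 and 1.11 CPM in the vector control, 2.17, 2.95 and 3.93 with EMX1-FL and 2.95, 2.70 and 2.54 with EMX1-X1. All 3 EMX1-FL and all 3 EMX1-X1 libraries lay above the highest vector control library. The log2 fold change was 0.89 ± 0.32 (SE) for EMX1-FL against vector control (unadjusted p = 0.0165, adjusted p = 0.653, edgeR) and 0.75 ± 0.32 for EMX1-X1 (unadjusted p = 0.0369, adjusted p = 0.584, edgeR). Both comparisons use the same vector control libraries. A two-sided exact permutation of the log2 CPM values gave p = 0.1 for each, the smallest it can give with 3 libraries against 3. The level is low, 517 counts over the 9 libraries, and without vector control 3, the lowest library, the values were 0.67 and 0.52, neither at an unadjusted p under 0.05. Leaving out EMX1-FL 3 gave 0.66 for EMX1-FL, also short of that threshold, and the value for EMX1-X1 missed it without vector control 1, EMX1-FL 2 or any of the EMX1-X1 libraries (0.67 to 0.79).

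By role group, the MHC class I genes were near 0 with EMX1-FL over all libraries, although each differed in sign between the sides of the first component (below). Their median log2 fold change was -0.03, 6 of 8 were lower and 2 higher, and the values ran from -0.09 (HLA-B) to 0.31 (PSMB9). HLA-B, HLA-C and HLA-E were at -0.09 ± 0.25, -0.03 ± 0.27 and -0.03 ± 0.25 (SE), with 95% confidence intervals from -0.63 to 0.45, from -0.62 to 0.56 and from -0.58 to 0.53. The 4 IFIT genes were between 0.06 and 0.37 and the 6 inducers and sensors between -0.20 (IFIH1) and 0.46 (IRF7), none at an unadjusted p under 0.05. Changes of the MHC class I chains inside these intervals were not detectable.

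**Figure D2:**
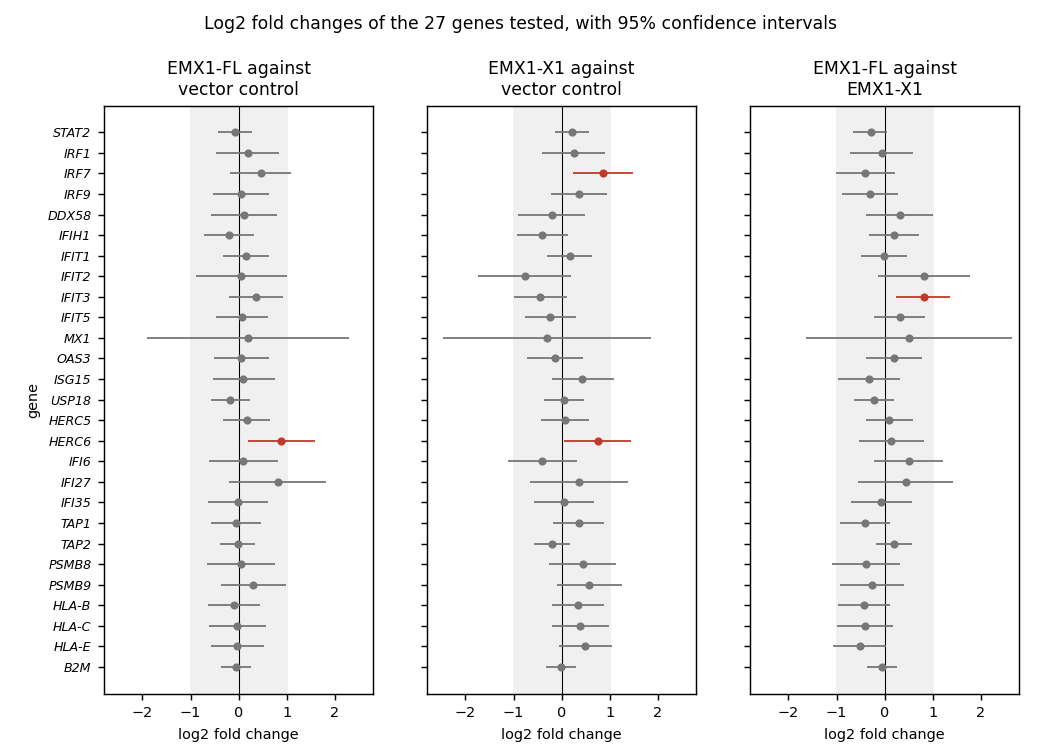
Log2 fold change of the 27 genes tested in the 3 comparisons, with 95% confidence intervals from edgeR's quasi-likelihood fit. Red marks an unadjusted p under 0.05 (HERC6, IRF7 and IFIT3) and the grey band a log2 fold change within 1; every point lies inside the band.

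EMX1-X1 against vector control gave, again, 0 of 27 members past the DEG threshold, against 2.5% of all genes, and 0 at an adjusted p under 0.05, against 0.00538% (1 gene). At an unadjusted p under 0.05 there were 2 members (7.41%), IRF7 and HERC6, both higher, against 8.11% of all genes by edgeR. The members' median log2 fold change was 0.17, with 17 higher and 10 lower, beside 0.01 over all genes, and the range ran from -0.77 (IFIT2) to 0.86 (IRF7). The groups did not overlap for 6 members (22.2%), against 14.7% of all genes: STAT2, IRF7, IRF9, HERC6 and PSMB9 were higher and TAP2 was lower with EMX1-X1. Here 16 of the 27 intervals lay within a log2 fold change of 1.

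IRF7, the transcription factor that amplifies interferon production, lies on chromosome 11 (612553 to 615983, minus strand). IRF7 was at 2.10, 2.71 and 1.61 CPM in the vector control, 3.37, 2.70 and 2.77 with EMX1-FL and 2.87, 4.61 and 4.16 with EMX1-X1. The EMX1-X1 libraries were all above the vector control, and the EMX1-FL libraries overlapped both groups. The log2 fold change was 0.86 ± 0.29 (SE) for EMX1-X1 (unadjusted p = 0.0116, adjusted p = 0.536, edgeR) and 0.46 ± 0.29 for EMX1-FL (unadjusted p = 0.137, adjusted p = 0.997). EMX1-FL against EMX1-X1 itself was -0.40 ± 0.28, with a 95% confidence interval from -1.02 to 0.22, so a difference between the isoforms was not resolved. The exact permutation test of EMX1-X1 against vector control gave p = 0.1. IRF7 had the highest GC content of the 27 members (66.8%), and its value fell to 0.35 (unadjusted p = 0.247) when edgeR was fitted with an offset for GC content. It was 0.68 without vector control 3 and 0.72 without EMX1-X1 2, both short of an unadjusted p of 0.05. Among the 5 other libraries alone EMX1-X1 was 0.25 above the vector control on the log2 scale, and among the 4 positive-component libraries it was 1.40 above.

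With EMX1-X1, 6 of the 8 MHC class I genes were higher and 2 lower, with a median of 0.37 and a range from -0.20 (TAP2) to 0.57 (PSMB9). None was at an unadjusted p under 0.05. HLA-B was at 155, 148 and 190 CPM in the vector control, 211, 117 and 136 with EMX1-FL and 149, 223 and 251 with EMX1-X1. HLA-E was at 93.6, 85.0 and 106 CPM, 125, 72.6 and 80.7 CPM, and 90.6, 153 and 157 CPM in the same order of groups. In both genes EMX1-X1 2 and 3 were the 2 highest libraries and EMX1-X1 1 lay within the vector control range. The log2 fold changes of HLA-B, HLA-C and HLA-E were 0.34 ± 0.25, 0.38 ± 0.27 and 0.49 ± 0.25 (SE; adjusted p = 0.713, 0.700 and 0.632, edgeR). With the offset for GC content they were 0.02, -0.03 and 0.31, the last at an unadjusted p = 0.0428 by edgeR. Without EMX1-X1 1, the only EMX1-X1 library that was not a positive-component library, 8 members had an unadjusted p under 0.05 by edgeR. They were IRF1, IRF7, IFIT2, IFIT3, TAP1, PSMB9, HLA-C and HLA-E, and IRF7 and IFIT2 passed the DEG threshold. Without EMX1-FL 1 there were 5 (IRF7, IFIH1, HERC6, PSMB9 and HLA-E), and without vector control 2 IRF7 passed the DEG threshold. The share of all genes was not computed for these fits, so the counts are not a result about the members. B2M was at -0.02 ± 0.14, the narrowest estimate of the members. HLA-B shares 18.9% of its exon bases with other annotated genes, and read pairs over more than 1 gene are not counted by the default of the counting program.

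The values of the HLA genes moved with the first principal component. HLA-B was between 190 and 251 CPM in the 4 positive-component libraries and between 117 and 155 in the other 5. HLA-C was between 126 and 175 CPM against 80.8 to 116, and HLA-E between 106 and 157 against 72.6 to 93.6. The sides did not overlap for 11 of the 27 members (40.7%), against 33.1% of all genes tested. In the positive-component libraries 7 of these were higher (ISG15, USP18, IFI35, TAP1, HLA-B, HLA-C and HLA-E) and 4 were lower (DDX58, IFIH1, IFIT5 and HERC5). IFIH1, for example, was between 69.1 and 94.5 CPM there and between 106 and 128 in the other libraries. The 7 higher members had a GC content of 51.6% to 63.4% (median 58.8%) and the 4 lower ones of 37.4% to 44.1% (median 41.9%). The 16 members that overlapped between the sides ran from 40.6% to 66.8% (median 50.3%), beside a median of 48.1% over all genes with a value. B2M, which did not separate, was between 229 and 275 CPM in all libraries. With the component's sign as a further term in the edgeR fit, HLA-B, HLA-C and HLA-E with EMX1-X1 against vector control were 0.12, 0.13 and 0.26. For EMX1-FL against EMX1-X1 they were -0.24, -0.23 and -0.33, the last at an unadjusted p = 0.0211 by edgeR. Beyond this fit and that with the GC offset, the part of GC content and of the component in the members' values was not tested.

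**Figure D3:**
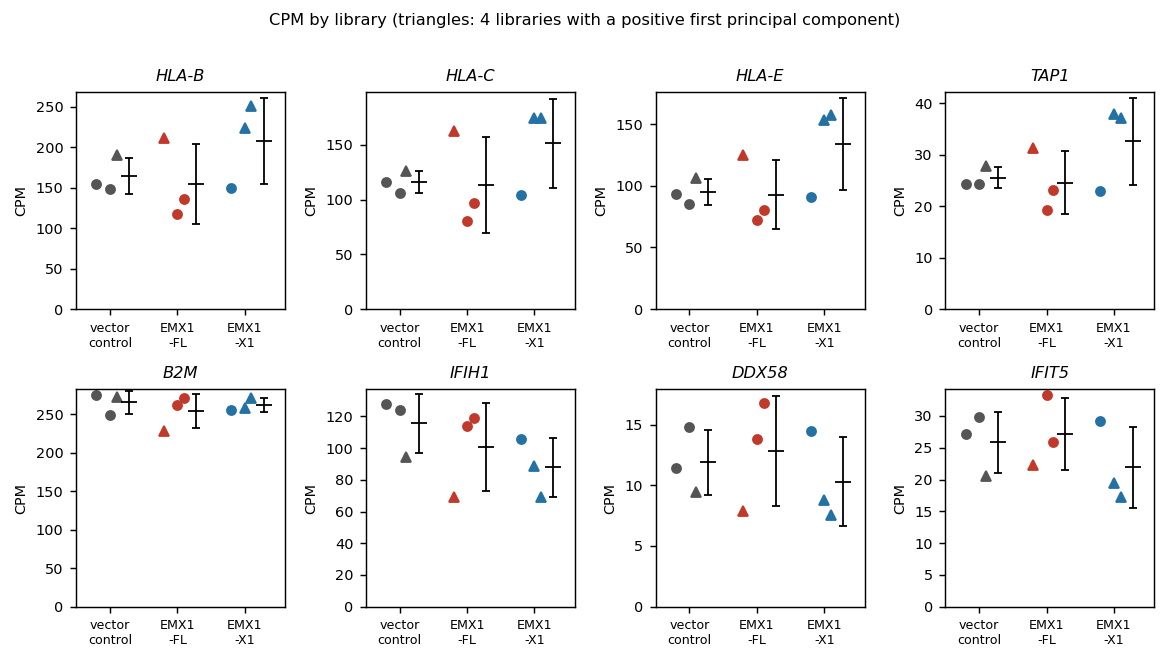
CPM of 8 genes by group, from 0, with triangles for the 4 positive-component libraries and circles for the other 5; the bar beside each group is the mean ± SD of its 3 libraries. HLA-B, HLA-C, HLA-E and TAP1 have all triangles above all circles, IFIH1, DDX58 and IFIT5 the reverse, and B2M overlaps.

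Within each side, EMX1-X1 and the vector control could be compared over few libraries. Among the 5 other libraries, EMX1-X1 1 differed from vector control 1 and 2 by -0.02 in HLA-B, -0.09 in HLA-C and 0.02 in HLA-E on the log2 CPM scale. Among the positive-component libraries, EMX1-X1 2 and 3 were above vector control 3 by 0.31, 0.48 and 0.55. Over the 8 MHC class I genes the median difference was -0.03 in the former and 0.45 in the latter. Each side had a group of 1 library here, and the difference between the sides was not tested. For EMX1-FL the median was -0.13 among the other libraries and 0.15 among the positive-component ones, where 1 library was compared with 1. HLA-B (-0.26 and 0.15), HLA-C (-0.33 and 0.38), HLA-E (-0.22 and 0.25), TAP1 (-0.20 and 0.16) and PSMB9 (-0.06 and 0.78) were lower among the former and higher among the latter. TAP2 (0.09 and -0.25), PSMB8 (0.12 and -0.07) and B2M (0.03 and -0.25) went the other way. For HERC6, EMX1-FL was above the vector control by 0.83 and 0.92 and EMX1-X1 by 0.63 and 1.18, the same direction on both sides. An edgeR fit of the 5 other libraries alone (2 residual degrees of freedom, with 1 EMX1-X1 library assumed to vary like the other groups) called no member at either threshold for EMX1-FL, for EMX1-X1 or between the isoforms, against 3.08%, 1.51% and 1.17% of all genes at the DEG threshold and 10.5%, 0.293% and 0.0944% at an adjusted p under 0.05. A fit of the 4 positive-component libraries (1 residual degree of freedom, with 1 vector control and 1 EMX1-FL library assumed to vary like the EMX1-X1 pair) called 1, 3 and 3 members past the DEG threshold, against 6.23%, 5.88% and 3.8% of all genes. With EMX1-X1 these were IRF7, IFIT2 and HERC6. That fit called 1, 10 and 5 members at an adjusted p under 0.05, against 18.0%, 21.7% and 16.4% of all genes.

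EMX1-FL against EMX1-X1 compared the isoforms. No member of 27 passed the DEG threshold, against 1.42% of all genes, and neither a member nor any gene passed at an adjusted p under 0.05 with edgeR, where 1418 genes had an unadjusted p under 0.05, or with limma; DESeq2 called 2 genes, neither of them a member. At an unadjusted p under 0.05 there was 1 member (3.7%), IFIT3, against 7.63% of all genes. The median of the members was -0.05, with 12 higher and 15 lower and a range from -0.52 (HLA-E) to 0.82 (IFIT2), beside 0.02 over all genes. The groups did not overlap for 2 members (7.41%), IFIT3 and STAT2, against 8.38% of all genes. The intervals lay within a log2 fold change of 1 for 17 of the 27.

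IFIT3, which binds and stabilizes IFIT1 and whose ISRE letters are printed above, lies on chromosome 10 (89327997 to 89340971, plus strand). IFIT3 was at 3.64, 3.49 and 4.12 CPM in the vector control, 4.88, 5.69 and 3.93 with EMX1-FL and 3.54, 2.49 and 2.26 with EMX1-X1. Every EMX1-FL library was above every EMX1-X1 library, and the vector control lay between and overlapped both. The log2 fold change of EMX1-FL against EMX1-X1 was 0.81 ± 0.26 (SE; unadjusted p = 0.00882, adjusted p = 0.611, edgeR), and the exact permutation test gave p = 0.1. Against the vector control it was 0.37 ± 0.25 with EMX1-FL and -0.44 ± 0.26 with EMX1-X1 (unadjusted p = 0.176 and 0.114, edgeR). On the log2 CPM scale the isoforms differed by 1.01 among the positive-component libraries and by 0.41 among the other 5. IFIT2, its neighbour on chromosome 10 (89283694 to 89309271, plus strand) and chosen here after its values were seen, was at 5.48, 5.37 and 3.75 CPM in the vector control, 6.03, 5.48 and 3.65 with EMX1-FL and 4.91, 2.66 and 1.01 with EMX1-X1. Its log2 fold change of EMX1-FL against EMX1-X1 was 0.82 ± 0.44, with a 95% confidence interval from -0.14 to 1.78. EMX1-X1 3 was the lowest library in both genes. IFIT5 was at 0.31 ± 0.25 and IFIT1 at -0.01 ± 0.22, and differences between the family members were not tested.

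**Figure D4:**
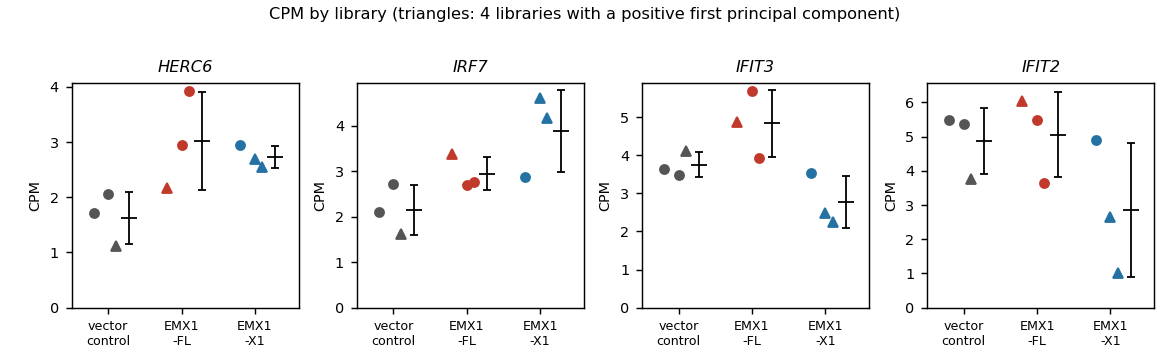
CPM of HERC6, IRF7, IFIT3 and IFIT2 by group, from 0, with triangles for the 4 positive-component libraries, circles for the other 5, and the mean ± SD of 3 libraries beside each group. HERC6 has all EMX1-FL and EMX1-X1 libraries above the vector control, and IFIT3 has all EMX1-FL libraries above all EMX1-X1 libraries.

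The MHC class I genes lay on the other side of this comparison, with 7 of 8 lower in EMX1-FL than in EMX1-X1, a median of -0.40 and values from -0.52 to 0.19 (TAP2). HLA-B was at -0.43 ± 0.25, HLA-C at -0.41 ± 0.27 and HLA-E at -0.52 ± 0.25 (SE), with unadjusted p = 0.113, 0.153 and 0.0622 from edgeR. With the offset for GC content they were -0.14, -0.08 and -0.36, and HLA-E then had an unadjusted p = 0.0203 by edgeR. EMX1-FL had 1 positive-component library and EMX1-X1 had 2. Within the sides HLA-B differed by -0.17 and -0.24, HLA-C by -0.10 and -0.24, and HLA-E by -0.30 and -0.24, for the positive-component and the other libraries respectively. Without EMX1-FL 1, the positive-component library of its group, the 3 values were -0.70, -0.75 and -0.79 and 10 members had an unadjusted p under 0.05. Without EMX1-X1 1, which leaves EMX1-X1 with positive-component libraries only, the comparison had 7 members at an unadjusted p under 0.05. Of the members, 2 were then past the DEG threshold, IFIT2 and IFIT3. The share of all genes was not computed for either fit.

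In the wider pathway few genes passed the DEG threshold. Of 13 negative regulators tested, 1 passed with EMX1-X1 against vector control, where 2.5% of all genes did: SOCS3, an inhibitor of JAK kinases, was at 14.6, 14.1 and 14.3 CPM in the vector control, 28.2, 11.2 and 14.2 with EMX1-FL and 17.2, 37.9 and 33.4 with EMX1-X1. SOCS3 rose by the study's threshold at 1.04 ± 0.35 (SE; unadjusted p = 0.0117, adjusted p = 0.536, edgeR), and the positive-component library was the highest in EMX1-FL while EMX1-X1 2 and 3 were the highest of all. Of 27 further interferon-stimulated genes tested, 1 passed between the isoforms, where 1.42% of all genes did. TRIM5, a restriction factor of retroviral capsids, was at 3.13, 3.40 and 3.38 CPM in the vector control, 3.68, 5.22 and 4.99 with EMX1-FL and 2.41, 1.66 and 2.42 with EMX1-X1, and the log2 fold change of EMX1-FL against EMX1-X1 was 1.09 ± 0.26 (SE; unadjusted p = 0.00115, adjusted p = 0.611, edgeR). The TRIM5 groups did not overlap between the isoforms. TAPBPL, a peptide editor of MHC class I, was 1 of 20 further antigen presentation genes tested, at -1.12 ± 0.48 (SE; unadjusted p = 0.037, adjusted p = 0.611, edgeR) for EMX1-FL against EMX1-X1, with only 178 counts in the 9 libraries. It was at 0.814, 0.829 and 0.247 CPM in the vector control, 0.621, 0.590 and 0.554 with EMX1-FL and 0.999, 1.25 and 1.62 with EMX1-X1.

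Besides SOCS3, TRIM5 and TAPBPL no gene of these pathway lists passed the DEG threshold in the 3 comparisons. The 10 receptor and JAK-STAT genes tested had medians of 0.12 with EMX1-FL, -0.14 with EMX1-X1 and 0.19 between the isoforms (EMX1-FL over EMX1-X1), with 0 at an unadjusted p under 0.05 in each by edgeR. The 10 sensing genes had medians of 0.12, 0.09 and 0.10, also with 0. The 27 further interferon-stimulated genes had medians of -0.13, -0.13 and 0.03 and 0, 5 and 5 genes at an unadjusted p under 0.05, of which 1 and 2 were higher, beside 5.8%, 8.11% and 7.63% of all genes by edgeR. The 20 other antigen presentation genes had medians of -0.09, 0.01 and -0.08. Of 14 MHC class II genes, 5 passed the filter, with medians of -0.44, 0.03 and -0.47, and none of these passed the DEG threshold. All 5 had values below 0 with EMX1-FL, and 1 had an unadjusted p under 0.05 there. It was HLA-DMA, a chain of the peptide exchange factor for MHC class II, named after its values were seen, at 3.55, 3.23 and 4.08 CPM in the vector control, 2.13, 2.06 and 2.22 with EMX1-FL and 2.95, 2.54 and 3.39 with EMX1-X1. The EMX1-FL libraries of HLA-DMA lay below all others, and the log2 fold change was -0.76 ± 0.24 (SE; unadjusted p = 0.00916, adjusted p = 0.529, edgeR).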

How the data were processed

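RNA-seq was made from SNU-398 cells, and the 3 libraries of each group were taken from the labels. The unit of the deposited table is the raw count of read pairs on a gene name; its header names featureCounts 2.0.1 with Ensembl release 99 of GRCh38, counted without strand. The submitters' processing notes name bcl2fastq 2.1.7, fastp, STAR and featureCounts 2.0.6, and the paper's methods name RSEM. Log2(TPM + 1) values were deposited as well, and recomputing them from the counts and the listed gene lengths checked their log2 scale. Deposited TPM were used for levels between genes.

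The counts were fitted with edgeR 4.0.16 in R 4.3.3 (TMM factors, filterByExpr, quasi-likelihood test, 9 libraries, group as the only term), and p-values were adjusted over 18574 genes by the Benjamini-Hochberg method. SE and 95% intervals come from the quasi-likelihood F. Log2 CPM of single genes also had an exact permutation test, two-sided. The fit was tested on simulated counts with known fold changes between groups. These counts lacked the first component, so they do not test the fit under that structure. GC content came from GENCODE 29 transcripts and promoter windows from RefSeq. Tables and plots used Python 3.11.15 with pandas 2.3.3, and matplotlib 3.10.9.

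The members and lists were chosen with earlier results of these data known. Members past the DEG threshold, at an unadjusted p under 0.05, or highest in their role group were given in every library. HLA-E in the text, and HLA-C, HLA-E, TAP1, B2M and DDX58 in the plots, fall outside this rule and were chosen after their values were seen. Other genes so chosen are named as such where they appear. The fit was repeated in 20 set ways: RLE factors; library size only; DESeq2 1.42.0; limma 3.58.1 on the log2(TPM + 1) values, or with 0.1 in place of 1; 2 other filters; the 6 libraries of a comparison; a replicate block; the component's sign; a GC offset (loess, span 0.3); and each of the 9 libraries left out. The 5 and the 4 libraries on either side of the component were fitted alone after the data were seen. Set tests were not run.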

Additional observations from a re-analysis of the deposited data

How the results depend on the processing

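Counts are given in the order EMX1-FL, EMX1-X1 (each against the vector control), then the isoforms against each other. In the 20 repeated fits no member passed the adjusted threshold, and the members' median log2 fold change ran from -0.04 to 0.14, from 0.03 to 0.26 and from -0.15 to 0.09, with the other sign in 1, 0 and 4 of the 20. The EMX1-X1 median of 0.17 was 0.03 with the GC offset and 0.05 without the filter, which adds low members. Without single libraries, 0 to 1, 0 to 2 and 0 to 2 members passed the DEG threshold: HERC6 without vector control 2 or EMX1-FL 1, IRF7 without vector control 2 or EMX1-X1 1, and IFIT2 and IFIT3 without EMX1-X1 1. In the 4 positive-component libraries alone some members passed each threshold in every comparison. That fit was made after the data were seen, with fewer samples, 1 residual degree of freedom and a spread taken from 1 pair.

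Members at an unadjusted p under 0.05 numbered 1, 2 and 1. They were 0 to 2, 0 to 8 and 1 to 10 without single libraries. For EMX1-FL the number was 0 without vector control 3 or EMX1-FL 3. For EMX1-X1 it was 0 without vector control 3 or EMX1-X1 2, and 8 without EMX1-X1 1. Between the isoforms it was 10 without EMX1-FL 1 and 7 without EMX1-X1 1. With the GC offset the members at an unadjusted p under 0.05 numbered 2, 4 and 4. The share of all genes was not computed for the fits without single libraries or with the GC offset. HLA-C with EMX1-X1 was -0.03 with the GC offset, and HLA-B and HLA-C were -0.03 and -0.10 in the 5 other libraries alone, where EMX1-X1 is 1 library. HLA-E had an unadjusted p under 0.05 by edgeR with the GC offset (0.31 with EMX1-X1, -0.36 between the isoforms) and in 5 of the 20 repeats for each comparison. The cause was not tested.

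IFIT3 between the isoforms stayed at an unadjusted p under 0.05 in all 20 repeats, and was 0.45 (unadjusted p = 0.187, edgeR) in the 5 other libraries alone, with 1 EMX1-X1 library. HERC6 with EMX1-FL, HERC6 with EMX1-X1 and IRF7 with EMX1-X1 were short of it in 2, 7 and 3 of the 20. Libraries with the same replicate number did not deviate together on average (mean correlation across genes -0.126, against 0.0596 between different numbers). The values for the same number ran from -0.522 to 0.29. The first component divides the libraries of every number, so a weaker pairing could be hidden and the check cannot exclude it. With the replicate block no member passed either threshold. At an unadjusted p under 0.05 were HERC6 with EMX1-FL, IRF7 and IFIT2 with EMX1-X1, and IFIT2 and IFIT3 between the isoforms. The share of all genes was not computed for this fit. HERC6 with EMX1-X1 was at 0.76 there (unadjusted p = 0.0613, edgeR). Depth limits MX1, IFI27, PSMB8 and HERC6 most, with 67, 205, 391 and 517 counts in all.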
